A study of Mus musculus with 14 samples.

Results

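The 38 interferon-stimulated genes described here are genes that cells switch on when interferon reaches them, and they were read in mouse lymphatic endothelial cells from lymph nodes. They were chosen by name from the list given for this work, of 34797 genes that the array files name, and the probe with the highest mean log2 signal over the 14 arrays stands for each gene. Of the 38, 29 are counted as targets of type I interferon and 9 as targets of interferon-gamma (Irf1, Gbp2, Gbp3, Gbp5, Cxcl9, Cxcl10, Cxcl11, Igtp and Irgm1). The split follows common use, and many of these genes answer to both kinds of interferon.

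The cells came from C57Bl/6 mice and from the subcapsular sinus, where lymph enters the node, or from the medullary sinus, through which it leaves. In 5 subcapsular and 5 medullary samples, 50 cells each were cut by laser-capture microdissection (LCM) out of frozen sections of inguinal, axillary and brachial nodes, stained for CD31 and F4/80. In 2 subcapsular and 2 medullary samples, 1200 cells each were sorted (FACS) from enzyme-digested nodes of many body sites. The sort used a lineage cocktail (against CD3e, CD11b, B220, Ly-6G, Ly-6C and erythroid cells), CD73, podoplanin and the dead-cell dye 7-AAD. No sample is described as infected or treated with interferon, so these are levels in nodes with no stated stimulus. Age, sex and any transgene are not given, nor is the sign of CD73 that marked each sorted sinus. All RNA was amplified by the SuperAmp method and labelled with Cy3, with 1 array per sample. The replicates are called biological but are not tied to animals, so the p-values measure the spread between these samples.

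Type I interferons bind a receptor of the chains IFNAR1 and IFNAR2, and the kinases JAK1 and TYK2 then activate STAT proteins, among them STAT2. With IRF9 these form a complex that binds the interferon-stimulated response element (ISRE). Interferon-gamma binds IFNGR1 and IFNGR2 and acts mainly through the gamma-activated site (GAS). In the lymph node, the subcapsular sinus is lined by macrophages that take up virus from the lymph and can make type I interferon.

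The promoters of the members on which the comparisons turn are shown to set these letters beside the values. They are RefSeq sequences on GRCm38.p6, from 250 bases before to 50 bases after the transcript start, while probe positions in the array files are on the older build mm9. Capitals mark matches to the ISRE core GAAANNGAAA (or TTTCNNTTTC, the same on the other strand) or to the GAS letters TTCNNNGAA, which read the same on both strands. The Gbp3 (chr3:142559794-142560093, plus strand) and Ifitm3 (chr7:141010695-141010994, minus strand) promoters belong to the members with the largest called differences. Cxcl9 (chr5:92328030-92328329, minus strand) is the third called member, and Gbp2 (chr3:142620413-142620712, plus strand) and Cxcl10 (chr5:92348840-92349139, minus strand) come next in order of p.
Gbp3: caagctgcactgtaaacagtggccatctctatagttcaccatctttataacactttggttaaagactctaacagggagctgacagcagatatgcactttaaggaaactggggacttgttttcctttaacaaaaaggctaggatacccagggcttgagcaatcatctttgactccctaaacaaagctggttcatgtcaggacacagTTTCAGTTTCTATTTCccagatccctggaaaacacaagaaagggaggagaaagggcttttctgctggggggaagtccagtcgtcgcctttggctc
Ifitm3: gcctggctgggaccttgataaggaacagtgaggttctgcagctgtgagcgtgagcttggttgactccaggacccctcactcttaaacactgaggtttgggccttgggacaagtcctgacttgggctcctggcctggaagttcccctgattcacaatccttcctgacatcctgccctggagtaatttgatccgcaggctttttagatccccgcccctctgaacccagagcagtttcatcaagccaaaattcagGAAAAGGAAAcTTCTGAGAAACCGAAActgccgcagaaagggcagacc
Cxcl9: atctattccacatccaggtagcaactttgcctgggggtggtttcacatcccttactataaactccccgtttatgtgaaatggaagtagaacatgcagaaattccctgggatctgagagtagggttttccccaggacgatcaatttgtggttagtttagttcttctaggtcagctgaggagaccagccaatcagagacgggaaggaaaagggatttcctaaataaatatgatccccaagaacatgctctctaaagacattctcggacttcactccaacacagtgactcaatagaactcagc
Gbp2: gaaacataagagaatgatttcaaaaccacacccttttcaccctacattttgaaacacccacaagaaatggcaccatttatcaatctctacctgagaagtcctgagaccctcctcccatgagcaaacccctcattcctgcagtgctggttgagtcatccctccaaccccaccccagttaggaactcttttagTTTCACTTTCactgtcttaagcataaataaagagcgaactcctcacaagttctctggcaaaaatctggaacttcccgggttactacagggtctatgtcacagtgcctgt
Cxcl10: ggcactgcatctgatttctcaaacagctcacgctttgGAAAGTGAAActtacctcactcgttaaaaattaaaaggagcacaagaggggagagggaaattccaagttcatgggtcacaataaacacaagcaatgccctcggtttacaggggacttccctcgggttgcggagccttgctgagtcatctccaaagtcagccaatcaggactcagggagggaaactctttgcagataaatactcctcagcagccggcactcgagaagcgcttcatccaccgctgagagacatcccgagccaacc

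In the Gbp3 window, a pair of overlapping ISRE matches ended at positions −36 and −30 relative to the start. A second listed Gbp3 start, further downstream, had no match to either motif. Ifitm3 held 2 ISRE matches and 1 GAS match after the start, and the second ISRE match overlaps the GAS match. The Gbp2 match ended at −50 and the Cxcl10 match at −204, and the Cxcl9 window held neither motif. Promoters were found for 29 of the 38 members. An ISRE match occurred in 18 of these 29 (62.1%), with 12 of 21 type I targets and 6 of 8 interferon-gamma targets, against 1079 of 27025 genes in the table (3.99%). GAS letters occurred in 10 of 29 (34.5%), with 7 of 21 type I targets and 3 of 8 interferon-gamma targets, against 9.55% of all genes. These matches are a description of letters in a window of 300 bases and not of bound sites.

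Values are log2 signals minus the 75th percentile of the array, so 0 is the level of that percentile. They compare 1 probe between arrays and do not rank one gene above another. The markers of the sample type were mixed. Pecam1 (CD31) and Prox1, the transcription factor of lymphatic identity, were above background on 14 of 14 arrays, but so were Cd68, Emr1 (F4/80), Siglech and Cd3e, markers of macrophages, plasmacytoid dendritic cells and T cells. Of 6 lymphatic markers, 2 to 4 were above background on each subcapsular LCM array, 3 to 6 on each medullary LCM array and 3 to 4 on each FACS array. Lyve1 and Flt4 were above it on 7 of 14 arrays and Pdpn on 8. Pdpn, which encodes the podoplanin used in the sort, was at −4.90 and −5.60 on the subcapsular FACS arrays, above background on 1 of 2. Pecam1 stood at −3.36 and −3.83 on the medullary FACS arrays and at 1.12 to 6.83 on the other 12. The summed signal of 17 macrophage markers, in units of the 75th percentile, was 356 to 1603 on subcapsular LCM arrays, 90.5 to 193 on medullary LCM arrays, and 74.7 to 131 on FACS arrays. Arrays of slide 1 were subcapsular LCM 1 to 5 and medullary LCM 1 to 3, and those of slide 2 were medullary LCM 4 and 5 and all FACS arrays. Each FACS sinus lay in a row of its own on the slide, so row and sinus cannot be told apart there. In bulk samples of this kind, fewer cells of a type and less RNA per cell cannot be told apart either.

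Most members gave a signal in every group. Of the 38, 25 to 36 were well above background on each subcapsular LCM array and 30 to 35 on each medullary LCM array, where 57.5% to 74.1% and 73.0% to 79.4% of all genes were. Both subcapsular FACS arrays showed 37, and the medullary FACS arrays 32 and 30. Of all genes, 71.4% to 81.3% and 73.9% to 82.6% were above background in these groups. On all 14 arrays, 14 members (36.8%) were above background, against 39.5% of all genes by name. These 14 were 8 of 29 type I targets (Bst2, Ifi35, Ifi44, Ifih1, Isg20, Oas1a, Oasl1 and Zbp1) and 6 of 9 interferon-gamma targets (Cxcl9, Cxcl11, Gbp2, Gbp5, Irf1 and Irgm1). Ifih1, Isg20, Oas1a, Zbp1, Cxcl9, Cxcl11, Gbp5, Irf1 and Irgm1 had 2 probes with the brighter one used, which favours detection. At the other end, Oas3, a synthetase of the 2-5A messenger that activates RNase L, was above background on 0 of 5, 1 of 5, 1 of 2 and 1 of 2 arrays of the subcapsular LCM, medullary LCM, subcapsular FACS and medullary FACS groups. Mx1, a GTPase against influenza virus that is defective in most inbred mouse strains, reached background on 2, 0, 1 and 0 arrays of the same groups. Both were left out of every comparison.

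**Figure D1:**
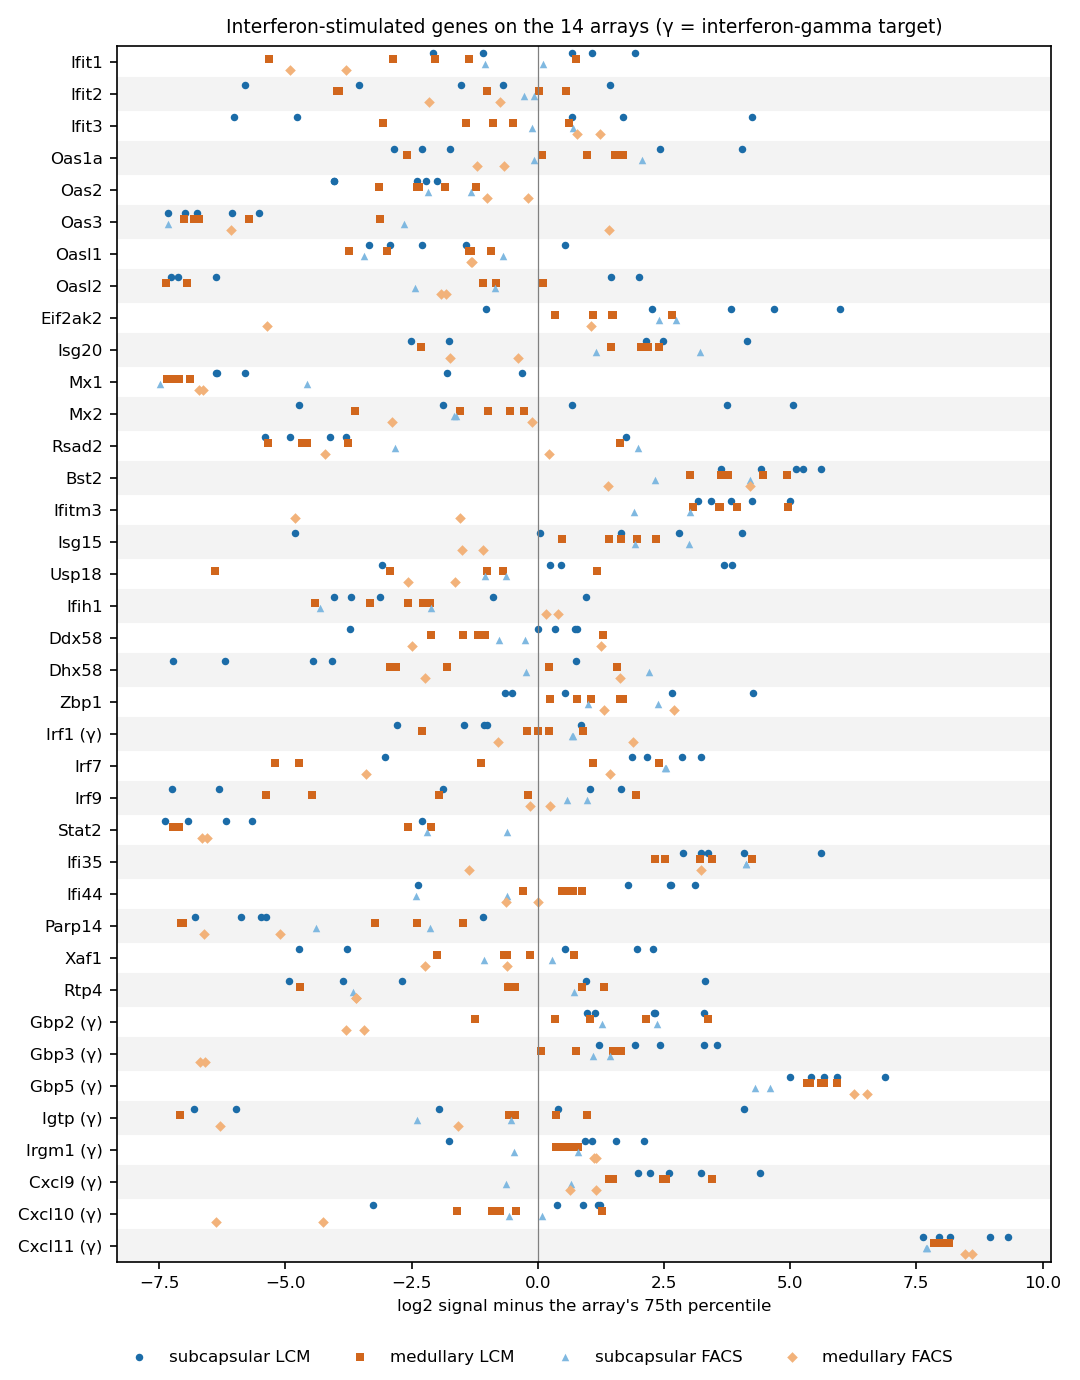
Each point is 1 array: log2 signal minus the array's 75th percentile (horizontal axis) for the 38 members (vertical axis, γ marks interferon-gamma targets), coloured by group. Cxcl11, Gbp5 and Ifitm3 lie within narrow bands on the LCM arrays, while Oasl2 and Igtp spread over many units.

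Members varied more between LCM samples of a sinus than a typical gene did. The median SD, pooled over both sinuses, was 1.80 for the 34 members tested and 1.49 for all genes tested. In 12 of the 34 it was under the all-gene median, and the tightest were Cxcl11 (SD 0.51), Gbp5 (0.53), Ifitm3 (0.71), Bst2 (0.77) and Gbp3 (0.83). Rsad2, which encodes viperin, was not among the 34 tested and was above background on 2 of 5 LCM arrays of each sinus. It was at −3.80, −5.41, −4.13, −4.91 and 1.75 on the subcapsular LCM arrays and −5.35, −4.67, −4.57, 1.63 and −3.77 on the medullary ones. One array of each sinus was thus several units above the rest. Oasl2, of the 2-5A synthetase-like family, lay at −6.38, 2.00, −7.28, −7.12 and 1.45 in subcapsular and −0.83, −6.94, −1.09, −7.37 and 0.09 in medullary LCM samples, with both groups split between values near 0 and values near the background.

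The LCM arrays ask whether interferon-stimulated genes differ between the sinuses in tissue sections. No member passed the test. Of 34 members tested with limma, 13 were higher and 21 lower in medullary samples, with 0 called at an adjusted p under 0.05 and 1 with an unadjusted p under 0.05. Over all genes 48 of 27380 were called (0.175%), and 3203 had an unadjusted p under 0.05. The median difference was −0.18 for the members and 0.08 for all genes tested. Scaling on the probes above background on all arrays moved the all-gene median to 0.81, so signs are best read against it: 21 of the 34 members lay below the all-gene median. For none of the 34 did the 5 medullary arrays lie wholly on one side of the 5 subcapsular arrays, which held for 3.09% of all genes tested. Stat2, Rsad2, Oas3 and Mx1 did not enter this comparison.

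By role, the antiviral effectors on RNA and translation split 5 higher and 4 lower (median 0.24). Ifit1, which binds viral RNA caps, was at −1.09, 1.93, −2.07, 1.07 and 0.67 on the subcapsular arrays and −2.03, −2.88, −1.36, 0.76 and −5.32 on the medullary ones, a difference of −2.27 (SE 1.13, limma adjusted p = 0.472). Eif2ak2, the kinase PKR that stops translation on double-stranded RNA, was at 2.27, 6.00, −1.03, 4.69 and 3.82 against 1.49, 2.66, 1.09, 1.47 and 0.35, differing by −1.73 (SE 1.16, limma adjusted p = 0.594). Its subcapsular replicate 3 lay below every medullary array and the other 4 above 4 or more of them. The 3 effectors on virus entry or release that were tested were all lower in the medullary sinus (median −0.85). Usp18, the protease that removes ISG15 and also damps the type I receptor, read 3.69, 3.85, 0.45, −3.09 and 0.24 against −1.01, −2.92, −0.70, −6.41 and 1.18, a difference of −3.00 (SE 1.62, limma adjusted p = 0.501). Medullary replicate 4 was far below the rest.

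Of the 4 nucleic acid sensors 3 were lower with the probes used (Ddx58, Ifih1 and Zbp1). Their other probes differed by 2.97, 2.74 and 0.41 with the other sign, those of Ddx58 and Ifih1 above background on 4 of 14 arrays. Dhx58, the LGP2 helicase, was higher. It was at 0.76, −4.07, −7.23, −6.21 and −4.45 in subcapsular and −2.82, −1.80, 1.56, −2.94 and 0.23 in medullary samples, a difference of 3.08 (SE 1.46, limma adjusted p = 0.448). Subcapsular replicate 1 was within the medullary range and the other 4 lay under it. Irf7, the transcription factor that amplifies interferon-alpha genes, was at 2.86, −3.04, 3.24, 1.86 and 2.17 against −4.73, 1.09, 2.39, −5.20 and −1.12 and differed by −2.93 (SE 1.68, limma adjusted p = 0.526). All 3 CXCR3 ligands and 4 of 5 interferon-gamma GTPases had negative differences with the probes used, with medians of −0.57 and −0.19. Other probes of Cxcl9 and Irgm1 differed by 0.49 and 1.31 with the other sign, and those of Cxcl10, Cxcl11 and Gbp5 were negative too. Gbp3, a guanylate-binding GTPase of cell-autonomous immunity, was the member with the lowest p, at 3.29, 3.55, 1.92, 1.21 and 2.41 in subcapsular and 1.49, 1.52, 0.75, 0.07 and 1.65 in medullary samples, a difference of −1.38 (SE 0.60, limma adjusted p = 0.41). Of its subcapsular values, 4 lay above every medullary value and replicate 4 fell among them.

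The macrophage markers differed in the same direction as most members. All 15 of those tested had negative differences in LCM (median −2.14, 0 called), and 13 of 15 housekeeping genes (median −0.88, 0 called) and 7 of 8 B cell markers (median −1.37, 0 called) were negative too. Markers of blood vessels and high endothelial venules went the other way. Of 8 tested 7 were positive (median 4.78), and 3 rose in medullary samples: Fut7 (6.76), Darc (5.44) and Chst4 (4.47), with limma adjusted p of 0.00386, 0.0163 and 0.0472. Their summed signal was 30.2 to 160 on subcapsular and 208 to 330 on medullary LCM arrays. The part of these lists in the members' values was not tested. The remaining 28 members tested differed by between −1.97 (Mx2) and 0.83 (Isg15), and none passed.

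**Figure D2:**
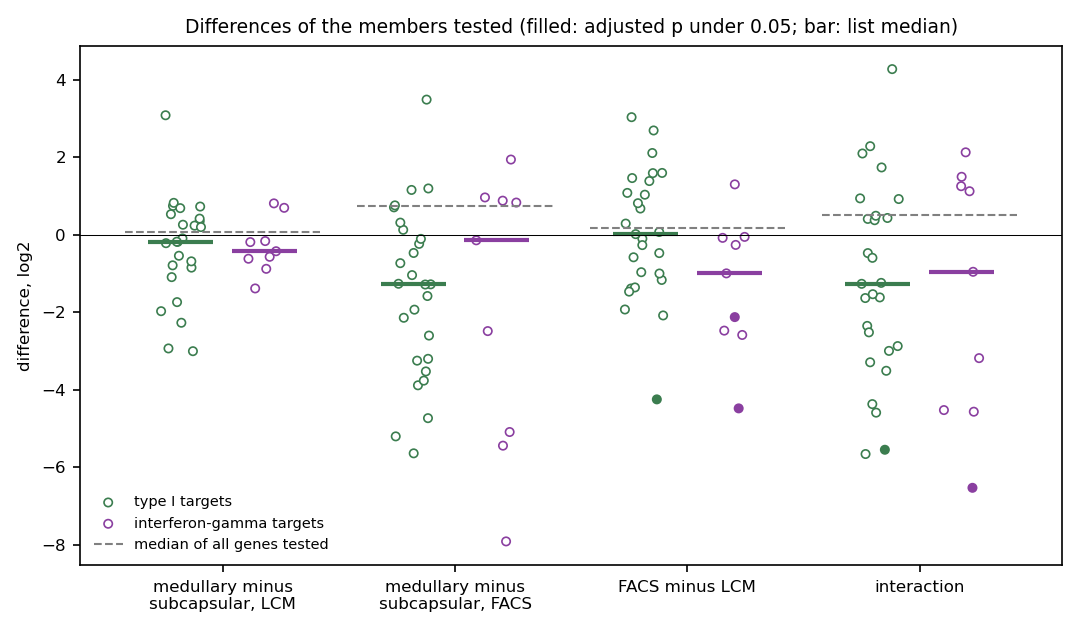
Each point is 1 member tested: its difference (vertical axis, log2) in 4 comparisons, type I targets in green and interferon-gamma targets in purple, with bars at the list medians and dashed lines at the median of all genes tested. Filled points, 3 in FACS minus LCM and 2 in the interaction, had a limma adjusted p under 0.05.

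Sorted cells pose the same question with 2 arrays per sinus. Members were mostly lower on the medullary arrays, and none passed the test. Of 36 tested, 11 were higher and 25 lower, with 0 called and 10 with an unadjusted p under 0.05 in limma. Over all genes 0 of 27662 were called (0%), the smallest adjusted p was 0.0645 and 8830 had an unadjusted p under 0.05. The median difference was −1.27 for the members and 0.74 for all genes tested, and 28 of 36 members lay below that all-gene median. Groups did not overlap for 22 of the 36, a share under the 69.7% of all genes tested.

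Among effectors on RNA and translation, Ifit1 was at 0.11 and −1.06 on the subcapsular and −4.91 and −3.80 on the medullary FACS arrays, differing by −3.88 (SE 0.79, limma adjusted p = 0.0944), with 1 of the 2 medullary arrays above background. Isg15, the ubiquitin-like modifier, was at 1.92 and 3.00 against −1.51 and −1.09, a difference of −3.76 (SE 0.69, limma adjusted p = 0.0865). A second Isg15 probe, above background on all 14 arrays, differed by 0.55 with the other sign. Stat2, a transcription factor of the type I complex, was at −2.19 and −0.61 on the subcapsular arrays and below background on both medullary ones, at −6.65 and −6.55. It was at least 9-fold lower there, with a measured difference of −5.20 (SE 0.79, limma adjusted p = 0.0738). All 4 transcription factors were lower in medullary samples, with a median of −2.13.

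Interferon-gamma targets went both ways. Gbp3 was at 1.09 and 1.43 on subcapsular FACS arrays and not above background on either medullary array, where it read −6.69 and −6.59. It was at least 57-fold lower there, with a measured difference of −7.91 (SE 0.56, limma adjusted p = 0.0645). Gbp2, its neighbour on chromosome 3, was at 2.36 and 1.27 against −3.81 and −3.44, differing by −5.44 (SE 0.68, limma adjusted p = 0.0656). Cxcl10, a chemokine for CXCR3-bearing T cells, was at 0.09 and −0.56 against −4.26 and −6.38, a difference of −5.09 (SE 0.96, limma adjusted p = 0.0883). One of those medullary values was above background, and the second Cxcl10 probe, above it on 5 of 14 arrays, differed by 0.43 with the other sign. For the probes used in these members, both medullary arrays stood well under both subcapsular ones. Gbp5, which promotes inflammasome assembly, was higher instead, at 6.26 and 6.53 against 4.59 and 4.31 and a difference of 1.94 (SE 0.57, limma adjusted p = 0.13), but its other probe differed by −2.42. Ifih1, the MDA5 sensor of long double-stranded RNA, was also higher, by 3.49 (SE 0.95, limma adjusted p = 0.123), but its other probe, above background on 4 of 14 arrays, differed by −1.84.

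Pecam1 and most housekeeping genes differed in the same direction as most members. Pecam1 differed by −8.22 (SE 0.74, limma adjusted p = 0.0645), and all 8 B cell markers were negative (median −2.20, 0 called). Lymphatic markers mostly went the other way. Of 4 tested 3 were positive and 1 negative (median 1.91, 0 called), with Prox1 at 1.94 (SE 1.31, limma adjusted p = 0.327). Of 15 housekeeping genes 13 were lower in the medullary FACS samples and 15 lay below the all-gene median, by a median of −2.10, beside −2.00 for the members. Their part in the members' differences was not tested. Of the remaining 30 members tested, the lowest was Ifitm3 (−5.63) and the highest Ifih1. With eBayes fitted with a trend and robustly, 5 of 36 members were called (Cxcl11, Gbp2, Gbp3, Gbp5 and Stat2), where 6.55% of all genes were. With all 14 arrays in 1 fit, 6 of 36 were called (Cxcl10, Gbp2, Gbp3, Gbp5, Ifitm3 and Stat2), where 16.3% of all genes were, a share near that of the members. With normexp background correction the Gbp3 difference was −3.51, smaller than its bound of 5.83 on the log2 scale, and the Cxcl10 difference −1.91. The Stat2 difference ran from −5.99 to −1.30 over the alternatives, beside a bound of 3.17. All lower bounds, those of other pathway genes included, thus apply only to the processing used here.

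**Figure D3:**
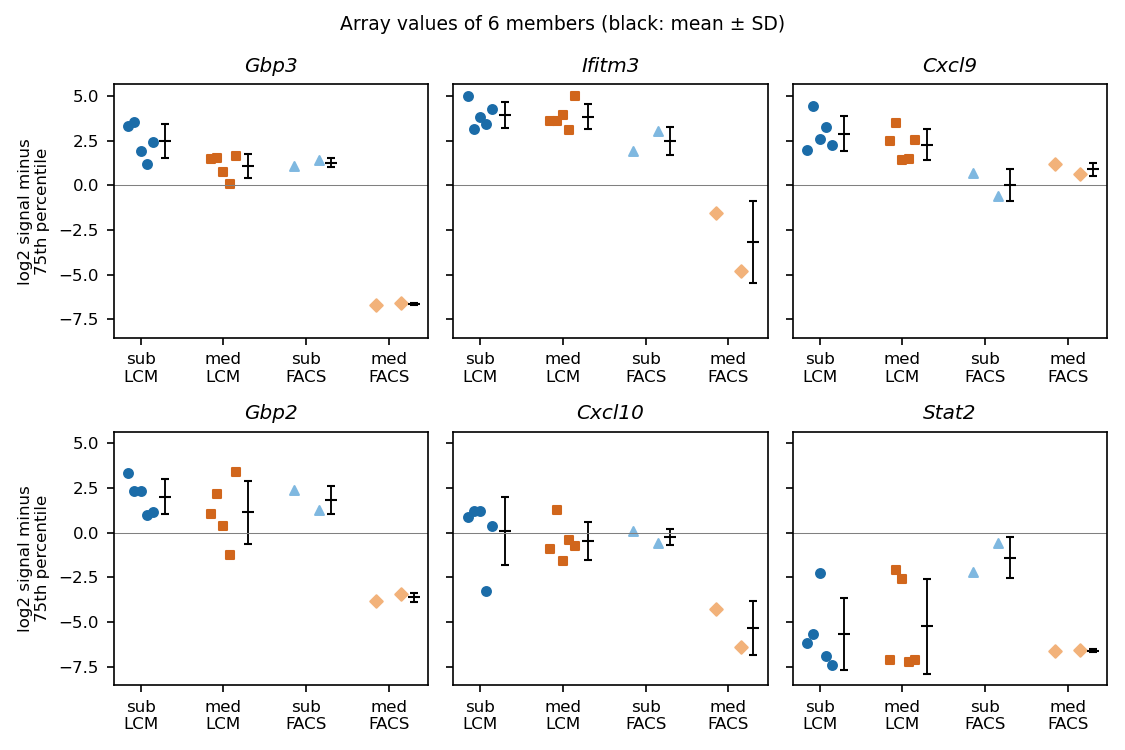
Points are single arrays: log2 signal minus the array's 75th percentile (vertical axis) for 6 members in the 4 groups (horizontal axis, sub = subcapsular, med = medullary), with black marks for mean ± SD (n = 5 for LCM, n = 2 for FACS). Gbp3, Gbp2, Cxcl10 and Ifitm3 are lowest in the medullary FACS samples, while Cxcl9 is lower in both FACS groups.

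FACS minus LCM, averaged over the sinuses, compares sorted with dissected cells, which also differ in digestion, cell number, node sites and mostly in slide. Ifitm3, Gbp3 and Cxcl9 fell in sorted cells, and no member rose. Of 36 members tested, 15 were higher and 21 lower, with 3 called, all lower. Over all genes 1147 of 29689 were called (3.86%), of which 605 (2.04%) were lower in FACS. The median difference was −0.18 for the members and 0.17 for all genes. Groups did not overlap for 2 members, Ifitm3 and Cxcl9, against 1.02% of all genes tested.

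Ifitm3, a membrane protein that blocks fusion of viruses in endosomes, was at 4.99, 3.17, 3.82, 3.43 and 4.24 on the subcapsular LCM arrays and 3.60, 3.61, 3.94, 3.07 and 4.96 on the medullary ones. It was at 1.90 and 3.01 on the subcapsular and −1.55 and −4.81 on the medullary FACS arrays. All 4 FACS values lay below all 10 LCM values, and the medullary FACS values were the lowest. The measured difference was −4.24 (SE 0.60, limma adjusted p = 0.00131), at a probe on chr7:148195591-148195650 (mm9), and rests in part on medullary FACS replicate 7, where Ifitm3 was not above background. Gbp3 was at least 10.8-fold lower with the medullary FACS arrays at the lowest signal called above background (measured difference −4.48, SE 0.45, limma adjusted p = 6.95e-05), at a probe on chr3:142236032-142236091 (mm9). Its subcapsular FACS values of 1.09 and 1.43 were within the LCM range, so the medullary FACS arrays carried the difference. Within the medullary sinus alone, Gbp3 was at least 50.7-fold lower in FACS (limma adjusted p = 0.00186), and Ifitm3 had a measured difference of −7.01 (limma adjusted p = 0.0108), with 1 of 2 FACS arrays above background. In the subcapsular sinus alone Gbp3 and Ifitm3 differed by −1.21 and −1.47 (limma adjusted p = 0.563 and 0.478), and 0 members were called.

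Cxcl9, a chemokine that interferon-gamma induces and that attracts CXCR3-bearing T cells, was at 1.99, 4.40, 2.60, 3.24 and 2.23 on the subcapsular LCM arrays and 2.48, 3.45, 1.42, 1.48 and 2.54 on the medullary ones. On the FACS arrays it was at 0.66 and −0.62 against 1.16 and 0.64, so every sorted sample was below every dissected one. Its difference was −2.12 (SE 0.50, limma adjusted p = 0.0329), or 4.35-fold, at a probe on chr5:92752796-92752855 (mm9), and a second probe differed by −2.97. In contrast to the other called members, its mean was lower in the subcapsular than in the medullary FACS samples. This call ended when any 1 of 7 of the 14 arrays was left out (limma adjusted p up to 0.192, without subcapsular FACS replicate 7). The neighbouring chemokine gene Cxcl11 differed by −0.08 (SE 0.36, limma adjusted p = 0.955) and did not pass. C57BL/6 mice carry a frameshift in Cxcl11 and make no functional protein from it, though its probe was above background on all 14 arrays.

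Members next in order of p did not pass. Gbp2 was at 3.30, 2.30, 2.32, 0.97 and 1.13 against 1.03, 2.14, 0.34, −1.25 and 3.38 on subcapsular and medullary LCM arrays, beside the FACS values above, and differed by −2.47 (SE 0.66, limma adjusted p = 0.0579). Cxcl10 was at 0.89, 1.18, 1.23, −3.26 and 0.38 against −0.90, 1.27, −1.60, −0.43 and −0.75 in LCM and differed by −2.58 (SE 0.74, limma adjusted p = 0.0797), while its other probe, above background on 5 of 14 arrays, differed by 2.70 with the other sign. Oas2, a 2-5A synthetase, was at −2.39, −4.05, −4.04, −2.00 and −2.22 against −1.84, −1.22, −2.40, −2.35 and −3.15 in LCM and at −2.18 and −1.33 against −1.01 and −0.19 in FACS. Its difference of 1.39 (SE 0.48, limma adjusted p = 0.156) was positive, and both medullary FACS values lay above every LCM value. With the probes used, all 4 nucleic acid sensors and all 4 transcription factors had positive differences, with medians of 0.88 and 1.38 and 0 called. Other probes of Ddx58 and Ifih1 differed by −0.92 and −0.79, and those of Zbp1 and Irf1 by 1.10 and 2.71. All 5 GTPases and all 3 CXCR3 ligands had negative differences with the probes used, with medians of −0.99 and −2.12. Other probes of Gbp5, Irgm1 and Cxcl9 were negative too, and those of Cxcl10 and Cxcl11 differed by 2.70 and 0.10.

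Markers of other cells moved in this comparison too. Of 17 macrophage markers 14 were lower in FACS and 4 fell (C1qa, Lyz1, Lyz2 and Timd4), while of 9 markers of fibroblastic reticular and mural cells 8 were tested and 3 fell (Col1a2, Col3a1 and Pdgfra). All 8 B cell markers were lower and 1 fell (Fcer2a). Of 7 dendritic cell markers 3 were higher and 4 lower (median −0.99), and 1 rose (Itgax). Pecam1 fell by 3.99 on the log2 scale (limma adjusted p = 0.00654), and Cdh5, the endothelial cadherin, by 2.94 (limma adjusted p = 0.016). Their part in the members' differences was not tested. With slide as a block 1 member was called (Gbp3, limma adjusted p = 0.0405), and with the medullary samples of slide 2 alone, 2 LCM against 2 FACS arrays, 0 were called. Gbp3 was at least 43-fold lower there (limma adjusted p = 0.126), and Ifitm3 had a measured difference of −7.19 (limma adjusted p = 0.176).

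The interaction asks whether the sinus difference in FACS differs from that in LCM. It was called for Gbp3 and Ifitm3, both more negative in FACS. Of 36 members tested 14 were positive and 22 negative, with a median of −1.25 against 0.52 for all genes, and 386 of 29689 genes were called (1.3%). For Gbp3, not above background on either medullary FACS array, the interaction was at least 21.9-fold (measured −6.52, SE 0.89, limma adjusted p = 0.00659). Ifitm3, above background on 1 of those 2 arrays, had a measured interaction of −5.54 (SE 1.20, limma adjusted p = 0.0449). For Ifitm3 the sinus difference was −0.09 in LCM and −5.63 in FACS, and for Gbp3 it was −1.38 in LCM and at least 57-fold in FACS. Gbp2 (−4.56, SE 1.31, limma adjusted p = 0.0945) and Cxcl10 (−4.52, SE 1.48, limma adjusted p = 0.126) did not pass. The other Cxcl10 probe, above background on 5 of 14 arrays, had sinus differences of −0.48 in LCM and 0.43 in FACS, the opposite order. Stat2 was at −6.18, −5.67, −2.29, −6.93 and −7.39 on subcapsular and −7.11, −2.11, −2.57, −7.23 and −7.15 on medullary LCM arrays, above background on 1 and 2 of 5, and its interaction of −5.65 (SE 2.01, limma adjusted p = 0.15) did not pass. Gbp5 was at 6.87, 5.93, 4.99, 5.67 and 5.41 against 5.34, 5.93, 5.68, 5.39 and 5.61 in LCM, with groups that overlapped, and its interaction of 2.13 (SE 0.73, limma adjusted p = 0.14) was positive and did not pass. The other Gbp5 probe, above background on all 14 arrays, had sinus differences of −1.10 in LCM and −2.42 in FACS, so it was more negative in FACS. The Ifitm3 call ended on leaving out any 1 of 12 of the 14 arrays (limma adjusted p up to 0.234), and the Gbp3 call without subcapsular FACS replicate 7 (limma adjusted p = 0.0734). With the replicate number as a block neither was called (limma adjusted p = 0.0828 and 0.129), and normexp gave −2.31 for Gbp3 (limma adjusted p = 0.0744). Pecam1 had an interaction of −8.86 (SE 1.41, limma adjusted p = 0.012). Darc (−6.92, SE 1.18, limma adjusted p = 0.0177) and the T cell marker Tcf7 (−5.45, SE 1.16, limma adjusted p = 0.0422) were called too. All 8 markers of blood vessels and high endothelial venules (median −4.66, 1 called) and all 6 endothelial markers (median −3.85, 1 called) were negative. Of 17 macrophage markers 12 were positive and 5 negative (median 0.97, 0 called). Of 6 lymphatic markers tested 5 were positive and 1 negative (median 2.39, 0 called), with Prox1 at 3.15 (SE 1.34, limma adjusted p = 0.205). The part of these markers in the members' values was not tested.

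Type I targets and interferon-gamma targets were set side by side in each comparison, with counts and medians and no test. In LCM, 11 of 25 type I targets were positive with a median of −0.18, and 2 of 9 interferon-gamma targets with a median of −0.42. The same counts lay above the all-gene median of 0.08. In FACS, 7 of 27 and 4 of 9 were positive, with medians of −1.28 and −0.14, and 4 of 27 and 4 of 9 exceeded the all-gene median of 0.74. With the mean of a gene's probes in place of the brightest one, the type I median lay 0.36 above the interferon-gamma median in FACS, where it lay 1.14 below it with the brightest probe. In FACS minus LCM, 14 of 27 type I and 1 of 9 interferon-gamma targets were positive, with medians of 0.02 and −0.99. Above the all-gene median of 0.17 lay 12 of 27 and 1 of 9. Called lower were 1 and 2, where 2.04% of all genes were. Irf1, a transcription factor, was the one positive interferon-gamma target (1.30, SE 0.67, limma adjusted p = 0.377). Without medullary FACS replicate 6 the type I median lay 0.20 below the interferon-gamma median in place of 1.01 above it, and without replicate 7 it lay 2.18 above. In the interaction 10 of 27 and 4 of 9 were positive, with medians of −1.26 and −0.95. Above the all-gene median of 0.52 lay 6 of 27 and 4 of 9. In each list 1 was called, where 1.3% of all genes were.

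The lists also differed between single samples. After each gene was centred on its mean over the 14 arrays, subcapsular LCM replicate 2 had a median of −0.90 for 27 type I targets and 1.44 for 9 interferon-gamma targets, beside 0.26 for all genes. Type I targets low on that array included Ifit2 (−5.81), Ifit3 (−4.77) and Isg15 (−4.81), while Eif2ak2 (6.00), Mx2 (5.06) and Isg20 (4.14) were the highest of the group there. It had the fewest genes above background (57.5%) of all arrays. Subcapsular LCM replicate 4 had −1.03 for type I and 0.06 for interferon-gamma targets. Both lists were below 0 on the medullary FACS arrays, at −0.60 and −0.88 for type I and −0.81 and −0.48 for interferon-gamma targets, where all genes were at 0.53 and 0.35.

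**Figure D4:**
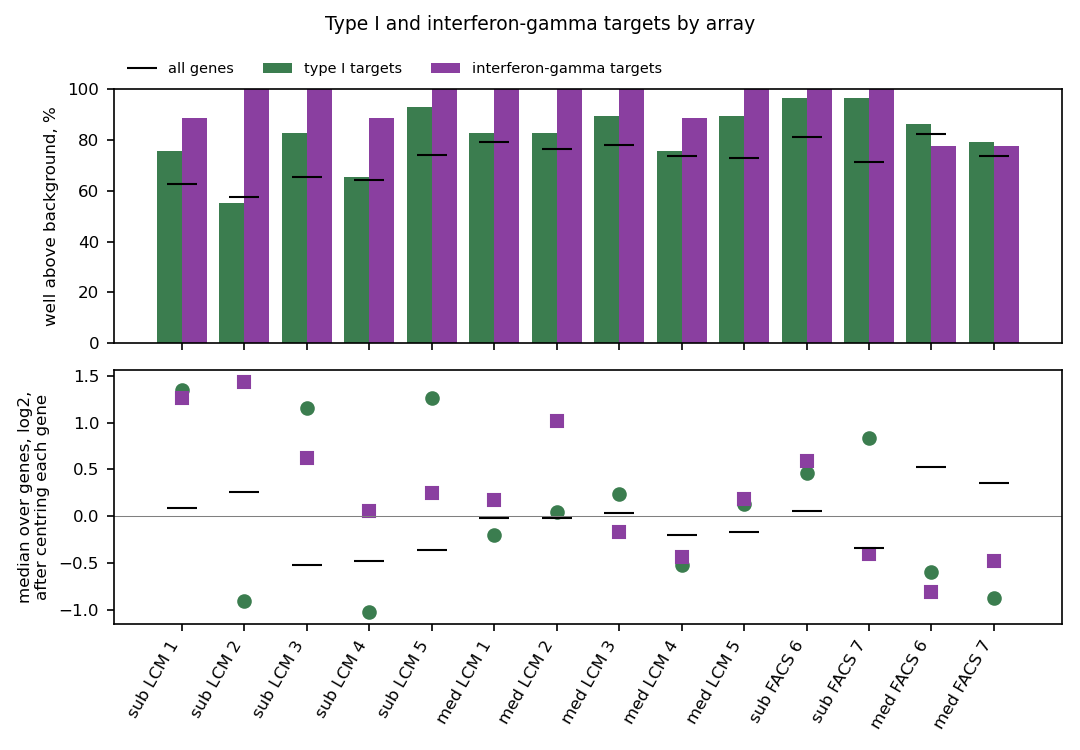
For each array (horizontal axis), the upper panel gives the percentage of type I targets, of interferon-gamma targets and of all genes that were well above background, and the lower panel their median log2 value after each gene was centred on its mean over the 14 arrays. On subcapsular LCM replicate 2 the list medians lie apart, at −0.90 and 1.44, and on both medullary FACS arrays both lists lie under 0 and under all genes.

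The upstream genes of the pathway were read from a list of 94 further genes by name. The 9 interferon genes on the array split by detection. Ifna1 and Il28b, an interferon-lambda, were above background on 14 of 14 arrays, Ifna5 on 13 and Ifna2 on 12. Ifng was above it on 7, Ifna4 on 5, Ifnb1, interferon-beta, on 4, Ifnk on 3 and Ifne on 2. The interferon-alpha genes are near-identical copies, so a probe may read more than 1 of them. Of the 9 interferon genes, 4 were tested in LCM and all were positive (median 0.82, 0 called). In FACS 5 were tested and 4 were positive (median 1.14, 0 called), with 3 above the all-gene median of 0.74. Ifng entered only the FACS and 14-array fits, with a sinus difference of 3.49 (SE 1.73, limma adjusted p = 0.227) in FACS and 3.19 (SE 1.26, limma adjusted p = 0.219) in FACS minus LCM. All 5 receptor genes tested were lower in the medullary sinus in both isolations, with medians of −1.34 in LCM and −4.84 in FACS and 0 called. Ifnar1, a chain of the type I receptor, was at 2.83, 3.08, −0.41, 3.25 and 1.02 against −0.46, −3.92, −2.18, 1.15 and 0.78 on subcapsular and medullary LCM arrays and at 1.37 and −0.19 against −5.13 and −4.37 on FACS arrays. It differed by −2.88 (SE 1.10, limma adjusted p = 0.362) in LCM and was at least 34.2-fold lower in FACS (limma adjusted p = 0.0742). Ifngr1, a chain of the gamma receptor, differed by −1.34 (SE 0.66, limma adjusted p = 0.465) in LCM and −2.00 (SE 0.73, limma adjusted p = 0.159) in FACS.

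Of the other pathway genes, 0 of 84 were called in LCM and 15 had an unadjusted p under 0.05 (17.9%, against 11.7% of all genes). Those with the lowest p were Tor3a (−3.13, SE 0.71, limma adjusted p = 0.152), Ifitm1 (3.64, SE 0.98, limma adjusted p = 0.215), a relative of Ifitm3, and Gbp4 (3.74, SE 1.13, limma adjusted p = 0.266). None of 83 was called in FACS, where 24 had an unadjusted p under 0.05 (28.9%, under the 31.9% of all genes). Tyk2, the receptor kinase, was at least 73-fold, Tap1, the peptide transporter of MHC class I loading, at least 163-fold and Cmpk2 at least 9.51-fold lower on the medullary arrays, each with a limma adjusted p of 0.0645. In FACS minus LCM 6 of 86 fell and 0 rose, where 2.04% of all genes fell. They were the GTPase genes Gvin1 (−3.02, SE 0.34, limma adjusted p = 0.000228) and Gbp7 (−2.42, SE 0.59, limma adjusted p = 0.0382), Il10rb (−3.73, SE 0.53, limma adjusted p = 0.00143), a receptor chain shared with interleukin-10 and above background on 1 of 2 medullary FACS arrays, the complement inhibitor Serping1 (−3.59, SE 0.59, limma adjusted p = 0.00444), Tyk2 (at least 9.19-fold, limma adjusted p = 0.0144) and Ifi203 (−2.25, SE 0.56, limma adjusted p = 0.0416). Gvin1 was at 2.57 and 2.42 against −0.79 and −0.28 on the FACS arrays and between 2.72 and 5.26 on all LCM arrays, with no overlap. The interaction was called for 4 of 86, where 1.3% of all genes were called, and all 4 were negative. They were Gbp4 (at least 326-fold, limma adjusted p = 0.019), Cd274 (−7.00, SE 1.49, limma adjusted p = 0.0422), which encodes PD-L1 and was above background on 1 of 2 medullary FACS arrays, Tyk2 (at least 54.3-fold, limma adjusted p = 0.0468) and the immunoproteasome gene Psmb9 (−4.43, SE 0.98, limma adjusted p = 0.0477).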

How the data were processed

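RNA was measured on 14 single-colour arrays. Per the file headers, the authors used Agilent Feature Extraction 10.7.3.1 to make the deposited scanner files, which hold background-adjusted intensity in arbitrary units. A deposited table of log2 values by the authors, whose making is not given in the sources used here, served as an alternative. From the intensities, log2 values minus the 75th percentile of each array were computed for 55681 probes, and outlier spots were left out. The brightest probe stood for each of 34797 genes. Of 38 members, 37 probes carried a RefSeq accession, and 34 matched the same symbol in the RefSeq table. A gene entered the LCM fit when well above background on 3 of 5 arrays of a sinus, the FACS fit when on 2 of 2, and the 14-array fits when either held.

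Fits used limma 3.58.1 (lmFit, eBayes) in R 4.3.3 with data.table (version 1.17.8), with array weights by isolation over 14 arrays and Benjamini-Hochberg adjustment over all genes, and a gene was called at an adjusted p under 0.05. The scripts were tested on simulated data. Lower bounds set each array of a group with no signal above background at the lowest signal called above it there, or at the measured signal where higher. The 14-array fits pool the spread of both isolations, and the number of arrays limits the precision. Members called, filled to 6 by lowest p, are given with values on every array, and 3 to 6 other pathway genes by p plus Ifnar1, Ifngr1, Ifnb1 and Ifng. Some genes of the fixed lists are not reported here. Ifih1 in FACS, single members named for their spread and the markers called were added after their values were seen. Alternatives covered background correction, scaling, filters, probes, variance models, slide, row, replicate block and each array left out. The members and lists were chosen with earlier results of these data known. Exon or UTR positions of probes, and related transcripts that a probe may also bind, were not analysed here.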

Additional observations from a re-analysis of the deposited data

Results flagged for a closer look

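In 7 of 68 groups of 5 LCM samples, 1 sample stood far from the others by Dixon's criterion. With normally spread values, chance meets it in about 1 group in 20. These groups share arrays and the share over all genes was not counted, so the count cannot show an excess for the members. In subcapsular LCM replicate 2, Ddx58, the RIG-I sensor, was at −3.72 (0.01 to 0.78 in the other 4), Irf7 at −3.04 (1.86 to 3.24) and Ifi44 at −2.37 (1.79 to 3.11). Parp14 was at −1.09 in subcapsular replicate 5 (−6.79 to −5.39 in the others). Cxcl10 was at −3.26 in subcapsular replicate 4 (0.38 to 1.23). In medullary LCM, Isg20 was at −2.30 in replicate 1 (1.46 to 2.41) and Igtp at −7.10 in replicate 4 (−0.57 to 0.98).

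The sinus difference differed between FACS and LCM, by the limma interaction term, for Gbp3 (−6.52), Ifitm3 (−5.54), Gbp4 (−9.82), Tyk2 (−7.59), Cd274 (−7.00) and Psmb9 (−4.43). These are measured values. Gbp3, Gbp4 and Tyk2 were not above background on either medullary FACS array, which leaves bounds of at least 21.9-fold, 326-fold and 54.3-fold, and Ifitm3 and Cd274 were above it on 1 of the 2. Limma adjusted p ran from 0.00659 for Gbp3 to 0.0477 for Psmb9. In each of the 6 genes the medullary FACS arrays were the lowest of the FACS arrays.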

How the results depend on the processing

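With 2 arrays per FACS group, single arrays decide calls, and probes near background have only bounds. In LCM no count of members called and no median over members less that of all genes moved beyond the spread between arrays. Over all genes, 48 were called in LCM, against 0 with the replicate block and 225 when arrays were scaled on probes detected on all of them. That scaling moved the all-gene median from 0.08 to 0.81 in LCM, from 0.17 to 0.40 in FACS minus LCM and from 0.52 to −0.10 in the interaction. The median over members less that of all genes in FACS was −2.00, and −1.24 with normexp, and the type I minus interferon-gamma median was −1.14, and 0.36 with the mean of probes. Members called in FACS were 0, against 5 of 36 with eBayes with trend and robust (6.55% of all genes, 1813) and 6 of 36 with all 14 arrays in 1 fit (16.3%, 4508). All genes called in FACS minus LCM were 1147, against 184 with slide as a block, and in the interaction 386, against 0 with the replicate block, 11 without subcapsular FACS replicate 7 and 1155 with quantile normalization. In FACS minus LCM 3 members were called, against 1 with slide as a block, 0 on slide 2 alone and 0 in the subcapsular sinus alone. The median of −0.35 became −1.04, −0.93 and 0.26 in the medullary sinus on slide 2, the medullary sinus alone and the subcapsular sinus alone, the last pair chosen after seeing the data. Leaving out 1 array gave 2 to 6 called, with 6 without medullary FACS replicate 6, medians of −0.52 to −0.25, and type I minus interferon-gamma medians of −0.20 to 2.18 (1.01 with all). With the mean of probes, Cxcl10 reversed to 0.058. The interaction was called for 2 members, and for 1 with normexp, without the filter, with slide as a block or without array weights. Its median of −1.77 became −1.07 with normexp, and its type I minus interferon-gamma median of −0.31 became 1.26 with the mean of probes. Leaving out 1 array gave 0 to 3 called (0 without subcapsular FACS replicate 7), medians of −2.30 to −1.06 and list differences of −1.23 to 0.49. The cause of these changes was not tested. Of 540 values of named members under alternatives, 486 kept their direction and side of the threshold, 37 lost and 16 gained a call, and 1 reversed.

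Same-numbered LCM samples correlated at −0.023 to 0.008 in their deviations from the group means. Of the LCM numbers, 1 of 5 correlated best with its own. Same-numbered FACS samples correlated at 0.018, and FACS numbers 6 and 7 each correlated best with their own. Correlations this small cannot show whether same-numbered samples share an animal. With the number as a replicate block 0 members were called in LCM, 0 in FACS and 0 in the interaction, and FACS and LCM share no number.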

Other observations

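Of 13 members with more than 1 probe, the probes differed in the sign of the sinus difference for 6 in LCM and 9 in FACS, and in the sign of FACS minus LCM for 6. For Irgm1, a GTPase of autophagy and pathogen control, they gave 0.97 and −4.21 in FACS, and for Irf1 −0.14 and −3.05. Both Cxcl11 probes, above background on all 14 arrays, gave 0.83 and 0.98. Oas3 was at 1.41 on medullary FACS replicate 6 and between −7.33 and −2.65 on the other 13 arrays.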
